A study of Mus musculus with 8 samples.

Results

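The genes described are 7 members of the Notch pathway: the receptors Notch1, Notch2 and Notch3, the DNA-binding factor Rbpj, and the target genes Hes1, Dtx1 and Nrarp. They were chosen by name, as the probes whose RefSeq accession belongs to one of these symbols, out of 21154 genes with a symbol on the array. Of the 7 members, 5 were bright enough to be tested and are among the 13498 genes tested in all. Hes1 and Nrarp were not.

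Expression was measured on 8 single-colour microarrays, 2 biological replicates of each of 4 populations of mouse thymocytes that had kept CD4 and lost CD8 (CD4 single-positive). All were taken fresh and lysed without culture, and labelled RNA was made from 10 ng per sample. The WT Tconv group held conventional T cells with little surface CD25, and the WT Treg group held regulatory T cells that express Foxp3, the transcription factor that defines them, both from wild-type mice. The Nr4a-TKO preTreg group held regulatory T cell precursors from mice with the genotype labelled Nr4a-TKO, gated on high CD25, high GITR and high Nr4a3. The Foxp3-KO preTreg group held precursors from mice labelled Foxp3-KO, gated on high CD25 together with a reporter of Foxp3. The series title gives its question as the roles of the Nr4a orphan receptors and of Foxp3 in the development of thymic regulatory T cells. There was no wild-type precursor group, so genotype and sort gate differ together between a precursor group and either wild-type group. The sources used here do not give strains, ages or the way the genes were deleted.

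Notch receptors are cut in the membrane when a ligand on a neighbouring cell pulls on them, and the freed intracellular part enters the nucleus. There it joins RBPJ and a Mastermind co-activator and switches on targets such as Hes1, which encodes a repressor, Dtx1, which encodes a ubiquitin ligase that acts on Notch, and Nrarp, which encodes a feedback inhibitor. Without the intracellular part, RBPJ sits with co-repressors. In the thymus, Notch1 drives commitment to the T lineage, and signalling falls as thymocytes pass the pre-T-cell-receptor stage. Messenger RNA levels of the pathway's genes do not measure receptor cleavage.

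The upstream windows of the members were read for the core of the RBPJ motif. The search was planned for the 3 members that are known targets. The other members were added because Rbpj differed most among the members, a reason taken from the values. RefSeq windows of the 250 bases before the transcription start (GRCm38.p6) were given for 6 of the 7 members, with 2 for Rbpj, and for Hes1 none was given. TGGGAA, searched on both strands, was found in the 2 overlapping windows of Rbpj and in no window of Notch1, Notch2, Notch3, Dtx1 or Nrarp. In all, 21.6% of 32851 windows of the same length held it. The window of Rbpj with both matches (chr5:53590096-53590345, plus strand) and that of Nrarp (chr2:25180508-25180757, plus strand) are printed 5′ to 3′, the first because it holds the motif and the second as a known target without it, with the matches in capitals.
Rbpj: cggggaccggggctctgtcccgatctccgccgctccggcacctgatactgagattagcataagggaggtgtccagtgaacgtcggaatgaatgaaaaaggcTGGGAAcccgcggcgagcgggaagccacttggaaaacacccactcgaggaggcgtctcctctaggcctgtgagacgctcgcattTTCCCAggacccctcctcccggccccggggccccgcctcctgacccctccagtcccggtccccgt
Nrarp: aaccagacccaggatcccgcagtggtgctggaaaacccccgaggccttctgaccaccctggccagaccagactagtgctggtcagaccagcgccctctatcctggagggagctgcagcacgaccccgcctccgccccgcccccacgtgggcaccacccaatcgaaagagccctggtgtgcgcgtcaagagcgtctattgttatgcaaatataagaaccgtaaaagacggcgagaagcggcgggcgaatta
The match on the plus strand of the Rbpj window lies 149 to 144 bases before the start, and the match on the minus strand, read there as TTCCCA, lies 65 to 60 bases before it. A match is a run of letters, not a binding site, and a window without a match says nothing about sites outside its 250 bases. No binding was measured in these samples.

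Levels are given as log2 signal relative to the 75th percentile of the array, so 0 is the level of that percentile. Each probe has its own brightness, so levels are compared between samples and not between genes. Replicates of WT Tconv were the closest, with a spread of 0.18 log2 units and r = 0.997 across the tested genes, and those of Foxp3-KO preTreg the widest, with 0.47 and r = 0.976. All arrays lay on the same slide, with WT Tconv and Nr4a-TKO preTreg in its first row and the other 2 groups in its second, and in the 4 comparisons that span rows the effects of row and group cannot be told apart. All 10 CD4 T cell markers were above background in each group, and all 7 regulatory T cell markers were higher in each of the 3 other groups than in WT Tconv. The gates themselves select on some of these markers. Foxp3 lay at 1.58 and 1.79 in Foxp3-KO preTreg, below WT Treg at 4.56 and 4.84 and above WT Tconv at -3.95 and -3.57. Nr4a2 lay at 3.53 and 3.70 in Nr4a-TKO preTreg and at most at 1.68 elsewhere, and the ranges of Nr4a1 and Nr4a3 there were no lower than in WT Tconv. Which parts of these genes were deleted is not stated in the labels, so these readings are no check of the genotypes: a probe may lie outside a deleted part.

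Markers of other cells differed between the groups and are given here once. The summed linear signal, relative to the 75th percentile, of the 11 of 12 B cell markers with a probe was 2.42 to 2.55 in WT Tconv, where 6 of them were at background on both arrays. It was 4.22 to 5.77 in WT Treg, where 4 were at background. In Nr4a-TKO preTreg it was 64.2 in replicate 1 and 16.6 in replicate 2, with none at background on both arrays, and in Foxp3-KO preTreg 19.4 in replicate 1 and 4.83 in replicate 2. The sum of 11 markers of immature or double-positive thymocytes was 78.7 to 79.4 in WT Tconv, 31.5 to 50.7 in Foxp3-KO preTreg, 11.7 to 13.9 in WT Treg and 13.7 to 16.3 in Nr4a-TKO preTreg. In Foxp3-KO against WT Tconv, 0 of the 11 markers were called lower by limma (1 at an unadjusted p under 0.05) and 1 was called higher, with a median difference of 0.07. Ccr9, a listed marker named after its values were seen, lay at 3.44 and 4.42 in Foxp3-KO and at 5.70 and 5.72 in WT Tconv (adjusted p = 0.0554). The sum of 12 myeloid and dendritic markers was 401 to 420, 431 to 445, 407 to 450 and 390 to 463 in WT Tconv, WT Treg, Nr4a-TKO and Foxp3-KO. Without Siglech and Itgam, a choice made after the values were seen, it was 33.0 to 33.3, 78.1 to 86.9, 88.4 to 132 and 66.2 to 124 in the same order. Of the 12, limma called 10 higher and 2 lower in Nr4a-TKO than in WT Tconv. Called higher than in WT Tconv were 6 in Foxp3-KO and 3 in WT Treg, with 0 lower in either. Of all tested genes, 21.1%, 10.3% and 13.8% were called higher in the same 3 comparisons. In a sorted bulk sample, fewer cells of a type and less RNA per cell cannot be told apart.

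**Figure D1:**
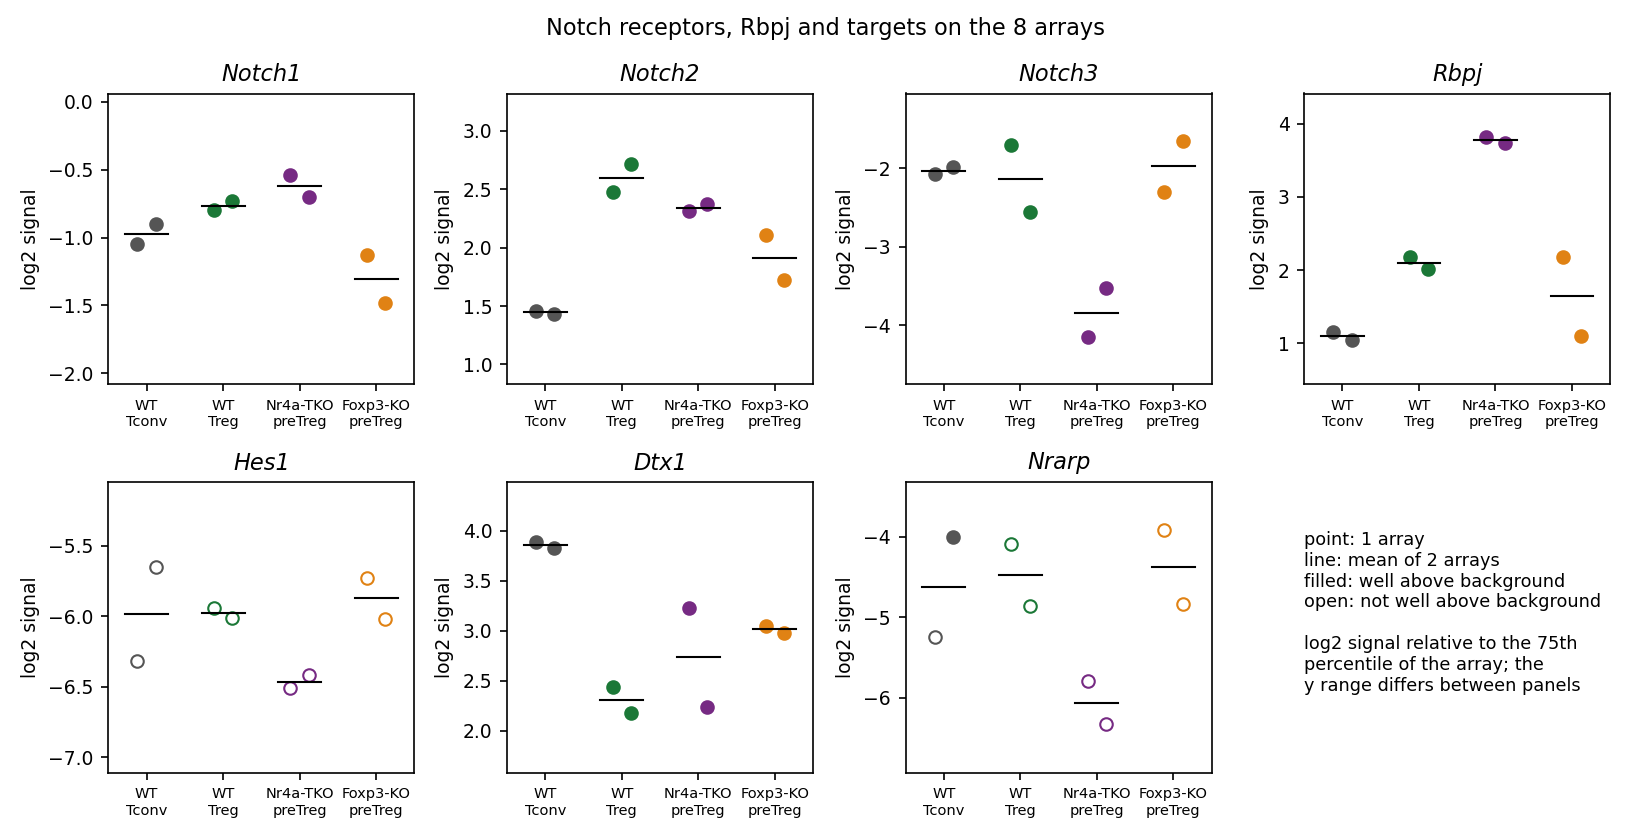
Log2 signal of the 7 members relative to the 75th percentile of the array (vertical axis, range differs between panels) in the 4 groups, with 1 point per array and a line at the mean of 2 arrays; filled points are well above background. Rbpj lies at 3.74 and 3.81 in Nr4a-TKO preTreg, above all other arrays, and Notch3 lies below all other arrays there, at -4.15 and -3.53.

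Notch1, the receptor of T lineage commitment, varied least of the tested members. Its log2 signal was -1.05 and -0.90 in WT Tconv, -0.80 and -0.73 in WT Treg, -0.54 and -0.70 in Nr4a-TKO preTreg, and -1.13 and -1.48 in Foxp3-KO preTreg. On this probe, the brighter of 2, no 2 groups overlapped, and the order from high to low was Nr4a-TKO, WT Treg, WT Tconv and Foxp3-KO. Only the ends of that order differed by the test: Notch1 was 1.61-fold higher in Nr4a-TKO than in Foxp3-KO (0.69 ± 0.14 log2 units, SE; adjusted p = 0.018). Neighbours in the order did not pass it, with adjusted p of 0.447 for Nr4a-TKO against WT Treg, 0.287 for WT Treg against WT Tconv and 0.136 for Foxp3-KO against WT Tconv. A dimmer Notch1 probe did not keep the separation or the order. On it Nr4a-TKO (-3.18 and -3.09) overlapped with WT Treg (-3.14 and -2.88), and Foxp3-KO (-3.51 and -3.40) with WT Tconv (-3.21 and -3.42). It gave 0.32 for Nr4a-TKO against Foxp3-KO (adjusted p = 0.100). That call was also lost without Nr4a-TKO replicate 1 (0.61) and with these 2 groups fitted alone (adjusted p = 0.0939).

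Notch2, a receptor best known in the immune system for its role in marginal zone B cells, was higher in WT Treg and in Nr4a-TKO preTreg than in WT Tconv. The arrays of WT Tconv lay close together at 1.46 and 1.43. WT Treg lay at 2.48 and 2.72, Nr4a-TKO at 2.31 and 2.37, and Foxp3-KO in between, at 2.11 and 1.72. No 2 of the groups overlapped on this probe, the brighter of 2. Relative to WT Tconv, Notch2 was 2.22-fold higher in WT Treg (1.15 ± 0.15, adjusted p = 0.00443) and 1.85-fold higher in Nr4a-TKO (0.89 ± 0.15, adjusted p = 0.00687). The difference of Foxp3-KO from WT Tconv was 0.46 ± 0.15 (adjusted p = 0.0751), and from WT Treg -0.69 ± 0.15 (adjusted p = 0.0596), and neither passed. Between Nr4a-TKO and WT Treg it was -0.26 (95% interval -0.64 to 0.11, adjusted p = 0.219), which leaves room for a difference in either direction. A dimmer Notch2 probe was near background in WT Tconv and at background on both Foxp3-KO arrays. Against WT Tconv it gave 1.01 for WT Treg (adjusted p = 0.100) and 0.89 for Nr4a-TKO (adjusted p = 0.112), so neither call held on it. On it Nr4a-TKO (-3.36 and -3.41) overlapped with WT Treg (-3.38 and -3.14), and Foxp3-KO (-3.70 and -4.98) spanned WT Tconv (-4.30 and -4.25). The B cell markers were higher in Nr4a-TKO than in WT Tconv too (8 of 9 tested), but not in WT Treg (0 of 9), and their part in the Notch2 difference of Nr4a-TKO was not tested.

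Notch3, the receptor associated with the pre-T-cell-receptor stage, was lower in Nr4a-TKO preTreg than in each of the other 3 groups, among which no difference passed the test. It lay at -2.07 and -1.99 in WT Tconv, -1.71 and -2.56 in WT Treg, and -2.30 and -1.65 in Foxp3-KO. In Nr4a-TKO it lay at -4.15 and -3.53, below all 6 other arrays, and still well above background on both. Nr4a-TKO was 3.51-fold below WT Tconv (-1.81 ± 0.37, adjusted p = 0.0126), 3.26-fold below WT Treg (-1.70 ± 0.37, adjusted p = 0.021) and 3.64-fold below Foxp3-KO (-1.87 ± 0.37, adjusted p = 0.0173). The other 3 groups overlapped in range, and their differences from each other were at most 0.16 in size (adjusted p of 0.822 to 0.922). With 2 arrays a group their 95% intervals reach from -1.04 to 1.09. The size depended on the background correction: with normexp and an offset of 50, which pulls dim probes together, the 3 differences of Nr4a-TKO were -0.74, -0.84 and -0.87, all still called. Leaving out Nr4a-TKO replicate 1, the lower array, ended each of the 3 calls (differences of -1.50, -1.40 and -1.56, adjusted p of 0.0662, 0.0996 and 0.0829). Either WT Tconv array, WT Treg replicate 1 or Foxp3-KO replicate 2 ended the call of its own comparison as well, with differences of -1.85, -1.77, -1.28 and -1.54. Fitted on the 2 groups alone, the calls against WT Treg (adjusted p = 0.0522) and Foxp3-KO (adjusted p = 0.0625) were lost too. In all, each of the 3 calls was lost under 4 of 19 alternatives.

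Ptcra, which encodes the pre-T-cell-receptor alpha chain and is both a Notch target in the pathway lists and an immature thymocyte marker, was named after its values were seen, because its levels resembled those of Notch3. It lay at -1.72 and -2.18 in WT Tconv, -2.06 and -3.00 in WT Treg, -1.77 and -1.15 in Foxp3-KO and -4.38 and -3.18 in Nr4a-TKO, where 1 of 2 arrays was above background. Ptcra was lower in Nr4a-TKO than in WT Tconv (-1.83 ± 0.51, adjusted p = 0.0318) and than in Foxp3-KO (-2.32 ± 0.51, adjusted p = 0.0225), but the difference from WT Treg did not pass (-1.25, adjusted p = 0.110). Without Nr4a-TKO replicate 1 neither call held, and the first was also lost without either WT Tconv array and the second without Foxp3-KO replicate 2. Fitted on Nr4a-TKO and Foxp3-KO alone, the second was lost too. In all, the first was lost under 6 and the second under 4 of 18 alternatives. Over 18 alternatives the 2 differences ran from -2.43 to -0.74 and from -2.92 to -1.06. The 11 immature thymocyte markers as a list did not follow Notch3 throughout: 8 were lower in Nr4a-TKO than in Foxp3-KO and 6 lower than in WT Tconv, while against WT Treg 1 was lower and 2 were higher. In WT Treg 6 were lower than in WT Tconv, without a called difference in Notch3. The part of immature cells in the Notch3 difference was not tested.

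Rbpj, the DNA-binding factor through which Notch acts, differed more than any other tested member. It lay at 1.15 and 1.04 in WT Tconv, 2.18 and 2.02 in WT Treg, and 3.81 and 3.74 in Nr4a-TKO preTreg. In Foxp3-KO the replicates were 1.08 log2 units apart, at 2.18 and 1.1, which spans the range from WT Tconv to WT Treg. Nr4a-TKO lay above all 6 other arrays and overlapped with no group.

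The difference of Rbpj between Nr4a-TKO preTreg and WT Tconv was 6.39-fold (2.68 ± 0.33, adjusted p = 0.00283), with both groups in the same row of the slide. This was the only call of a member that held under all 20 alternatives tried, where it ran from 2.57 to 2.83. Against WT Treg, Rbpj in Nr4a-TKO was 3.19-fold higher (1.67 ± 0.33, adjusted p = 0.0161), and against Foxp3-KO it was 4.37-fold higher (2.13 ± 0.33, adjusted p = 0.0091), a call lost when these 2 groups were fitted alone (adjusted p = 0.0668). The call against WT Treg was lost without any 1 of the 4 arrays compared (1.59 to 1.75, adjusted p up to 0.0798). A second, dimmer Rbpj probe gave 2.83, 2.18 and 2.51 for the 3 comparisons of Nr4a-TKO, all called (adjusted p of 0.00218, 0.00682 and 0.0053). The Rbpj level was nearly the same on the 2 Nr4a-TKO arrays, whose B cell marker sums were 64.2 and 16.6. Their sums of the 12 myeloid and dendritic markers were 450 and 407. Without Siglech and Itgam, which were bright in every group, the sums of these arrays lay further apart, at 88.4 and 132. The part of either kind of cell in the Rbpj level was not tested.

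In WT Treg, Rbpj was 2.0-fold the level of WT Tconv, with no overlap, but the difference missed the threshold (1.0 ± 0.33, adjusted p = 0.067). The spread used by the test is pooled over the 4 groups and includes that of Foxp3-KO: fitted on these 2 groups alone the difference was called (adjusted p = 0.00627), as it was without either Foxp3-KO array (adjusted p = 0.00227 for each). For Foxp3-KO no statement on direction could be made. Its difference from WT Tconv was 0.55 ± 0.33 (adjusted p = 0.263), and became 1.09 (adjusted p = 0.00593) without replicate 2 and 0.01 (adjusted p = 0.965) without replicate 1. Against WT Treg it was -0.45 ± 0.33 (adjusted p = 0.453), and turned from -0.99 (adjusted p = 0.0136) without replicate 1 to 0.09 without replicate 2. Foxp3-KO replicate 1, the array high in Rbpj, had the higher B cell marker sum (19.4 against 4.83). Its sum of the 12 myeloid and dendritic markers was higher too (463 against 390, or 124 against 66.2 without Siglech and Itgam). Its sum of immature thymocyte markers was lower (31.5 against 50.7). The part of any of these in the Rbpj level was not tested.

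**Figure D2:**
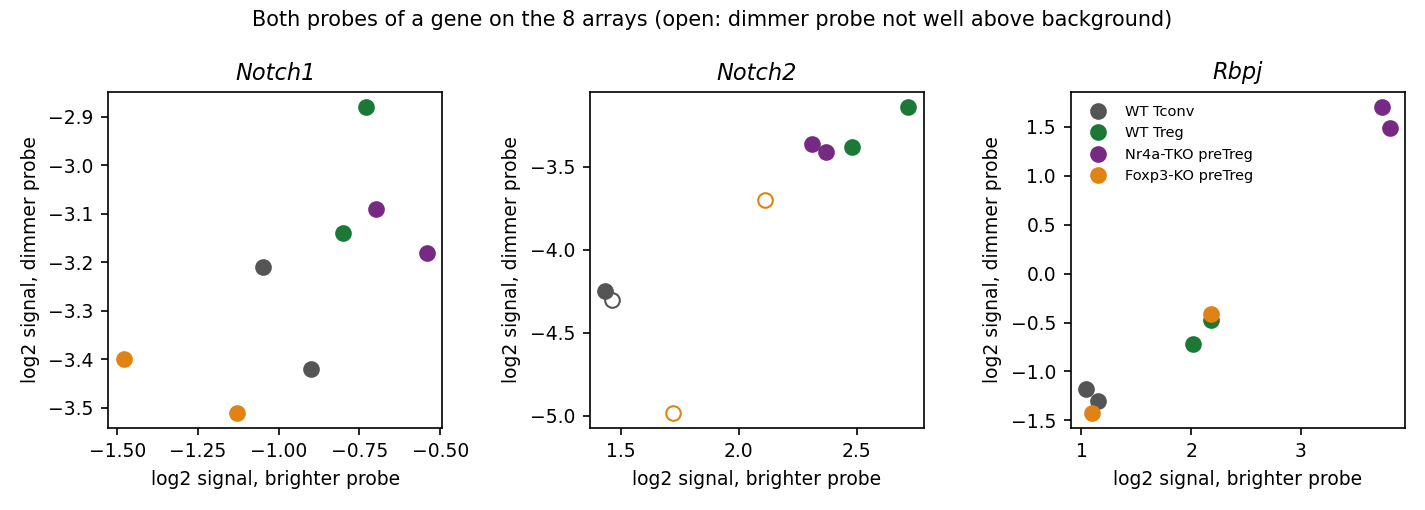
Log2 signal of the brighter probe (horizontal axis) against that of the dimmer probe (vertical axis) for the 3 members with 2 probes, 1 point per array, coloured by group and open where the dimmer probe is not well above background. For Rbpj the 2 Nr4a-TKO preTreg arrays stand apart on both probes, at 3.74 to 3.81 on one axis and 1.49 to 1.70 on the other, and the Foxp3-KO arrays are split on both.

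Dtx1, a Notch target that encodes the ubiquitin ligase Deltex1, went the opposite way to Notch2 and was highest in WT Tconv. It lay at 3.89 and 3.83 in WT Tconv, 3.05 and 2.98 in Foxp3-KO preTreg, 3.23 and 2.24 in Nr4a-TKO preTreg, and 2.44 and 2.18 in WT Treg. WT Tconv lay above all 6 other arrays, while the Nr4a-TKO arrays spanned the range from WT Treg to above Foxp3-KO. Relative to WT Tconv, Dtx1 was 2.93-fold lower in WT Treg (-1.55 ± 0.31, adjusted p = 0.0161) and 2.18-fold lower in Nr4a-TKO (-1.13 ± 0.31, adjusted p = 0.0313). In Foxp3-KO the difference was -0.85 ± 0.31 and did not pass (adjusted p = 0.101), though it was called when either Nr4a-TKO array was left out (adjusted p = 0.0176). The call in WT Treg was lost without any 1 of the 4 arrays compared (-1.42 to -1.68, adjusted p of 0.0561 to 0.0867). The call in Nr4a-TKO was lost under 6 of 19 alternatives, among them leaving out either WT Tconv or either WT Treg array. Without Nr4a-TKO replicate 2 the difference shrank to -0.63. Among WT Treg, Nr4a-TKO and Foxp3-KO no difference in Dtx1 passed (adjusted p of 0.237 to 0.523), though that of Foxp3-KO from WT Treg (0.70 ± 0.31) came to just under the threshold without either Nr4a-TKO array. Without Nr4a-TKO replicate 2 the Dtx1 level of Nr4a-TKO was above that of WT Treg (0.92, adjusted p = 0.0192), and without Nr4a-TKO replicate 1 it was below that of Foxp3-KO (-0.77, adjusted p = 0.0347).

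Hes1, the best-known Notch target, was not well above background on any of the 8 arrays, with readings of -6.51 to -5.65, and no level or fold is given for it. Nrarp, the feedback inhibitor, was above background on 1 array only, WT Tconv replicate 2, at -4.0. The other 7 Nrarp readings were -6.33 to -3.92. The bound that this allows is that the mean of WT Tconv was at least 1.01-fold that of Nr4a-TKO preTreg, which says next to nothing, and the remaining comparisons allow none. No member besides these 2 was at background in a group.

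**Figure D3:**
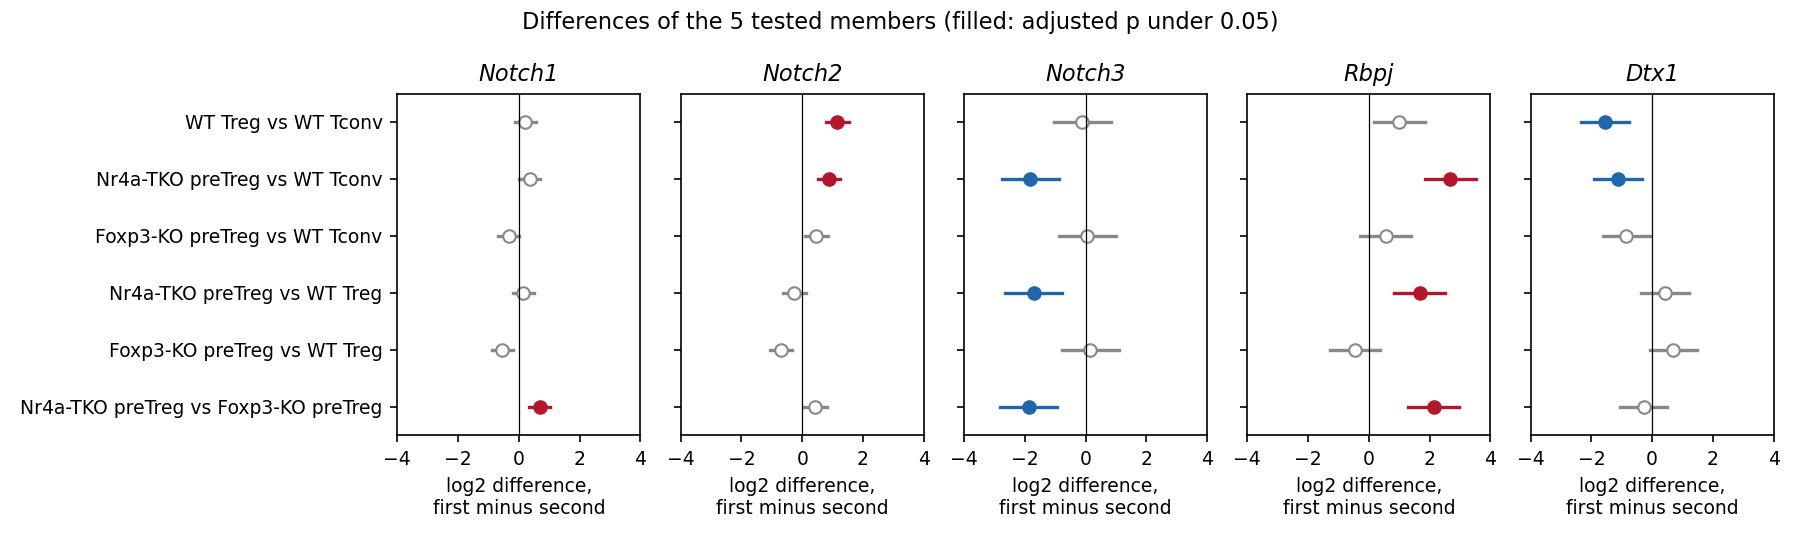
Log2 differences of the 5 tested members (horizontal axis, first group minus second) in the 6 pairwise comparisons (rows), with 95% confidence intervals from the fit as bars; filled points have an adjusted p under 0.05, red for higher and blue for lower. The calls of Rbpj and Notch3 lie in the 3 rows with Nr4a-TKO preTreg, and no member is called in the 2 rows that set Foxp3-KO preTreg against a wild-type group.

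Counted over the 5 tested members, the calls were read against the share of all tested genes called in the same comparison. The comparisons share groups, so their counts are not independent. For WT Treg against WT Tconv, 2 of 5 members were called, 1 higher and 1 lower, where 34.7% of all genes were (13.8% higher, 20.9% lower). For Nr4a-TKO against WT Tconv, 4 of 5 were called, 2 in each direction, where 48.7% of all genes were (21.1% higher, 27.6% lower). Between Nr4a-TKO and WT Treg, 2 of 5 were called (Rbpj higher, Notch3 lower), beside 35% of all genes (18.5% higher, 16.4% lower). Between Nr4a-TKO and Foxp3-KO, 3 of 5 were called (Notch1 and Rbpj higher, Notch3 lower), beside 33.4% (17.8% higher, 15.6% lower). For Foxp3-KO no member was called by limma against WT Tconv (0 of 5, beside 25.1% of all genes, 10.3% higher and 14.8% lower) or against WT Treg (0 of 5, beside 6.45%, 3.33% higher and 3.12% lower). At an unadjusted p under 0.05 there were 2 members in each of these, Notch2 and Dtx1 against WT Tconv, and Notch1 and Notch2 against WT Treg. With 5 members, shares of this size do not set the members apart from all genes. Across all tested genes, the span of the 4 group means was at or below that of Rbpj for 90.1%, Notch3 for 84.6%, Dtx1 for 81.2%, Notch2 for 73.9% and Notch1 for 56.3%.

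The members can be set beside the genes whose levels over the 8 arrays were most like theirs, among 4084 genes whose group means span at least 1 log2 unit. For Rbpj these were Rilpl2 (r = 0.998), Pparg, which encodes a nuclear receptor, and Ltb4r1, which encodes a leukotriene B4 receptor (r = 0.996 each). For Notch3 they were Mex3a, Plscr3 (r = 0.982 each) and Gfap (r = 0.981). For Notch2 they were Arhgef5 (r = 0.986), P2ry10 (r = 0.985) and Cdc42se2 (r = 0.982), and for Dtx1 Sdc2 (r = 0.970), Pdlim4 (r = 0.964) and Ear6 (r = 0.963). The r is a Pearson correlation of the 8 levels. The 8 points share 4 groups and the genes were picked for a high r, so these values describe likeness on these arrays and no more. The lower r for Dtx1 was the highest found for it.

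Of 80 other genes of the pathway, 71 were tested. Called were 31 in WT Treg against WT Tconv (14 higher, 17 lower), 47 in Nr4a-TKO against WT Tconv (18 higher, 29 lower) and 17 in Foxp3-KO against WT Tconv (6 higher, 11 lower). These are 43.7%, 66.2% and 23.9% of those tested, beside 34.7%, 48.7% and 25.1% of all genes. Between the other groups, 34 were called in Nr4a-TKO against WT Treg (16 higher, 18 lower), 8 in Foxp3-KO against WT Treg (3 higher, 5 lower) and 36 in Nr4a-TKO against Foxp3-KO (19 higher, 17 lower), or 47.9%, 11.3% and 50.7%, beside 35%, 6.45% and 33.4% of all genes. The median difference of these genes was -0.20 in Nr4a-TKO against WT Tconv, beside -0.11 over all genes, and lay within 0.13 of 0 in the other 5 comparisons. Of the 173 calls, 160 were still called under quantile normalization and 153 under median scaling, and none changed sign.

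**Figure D4:**
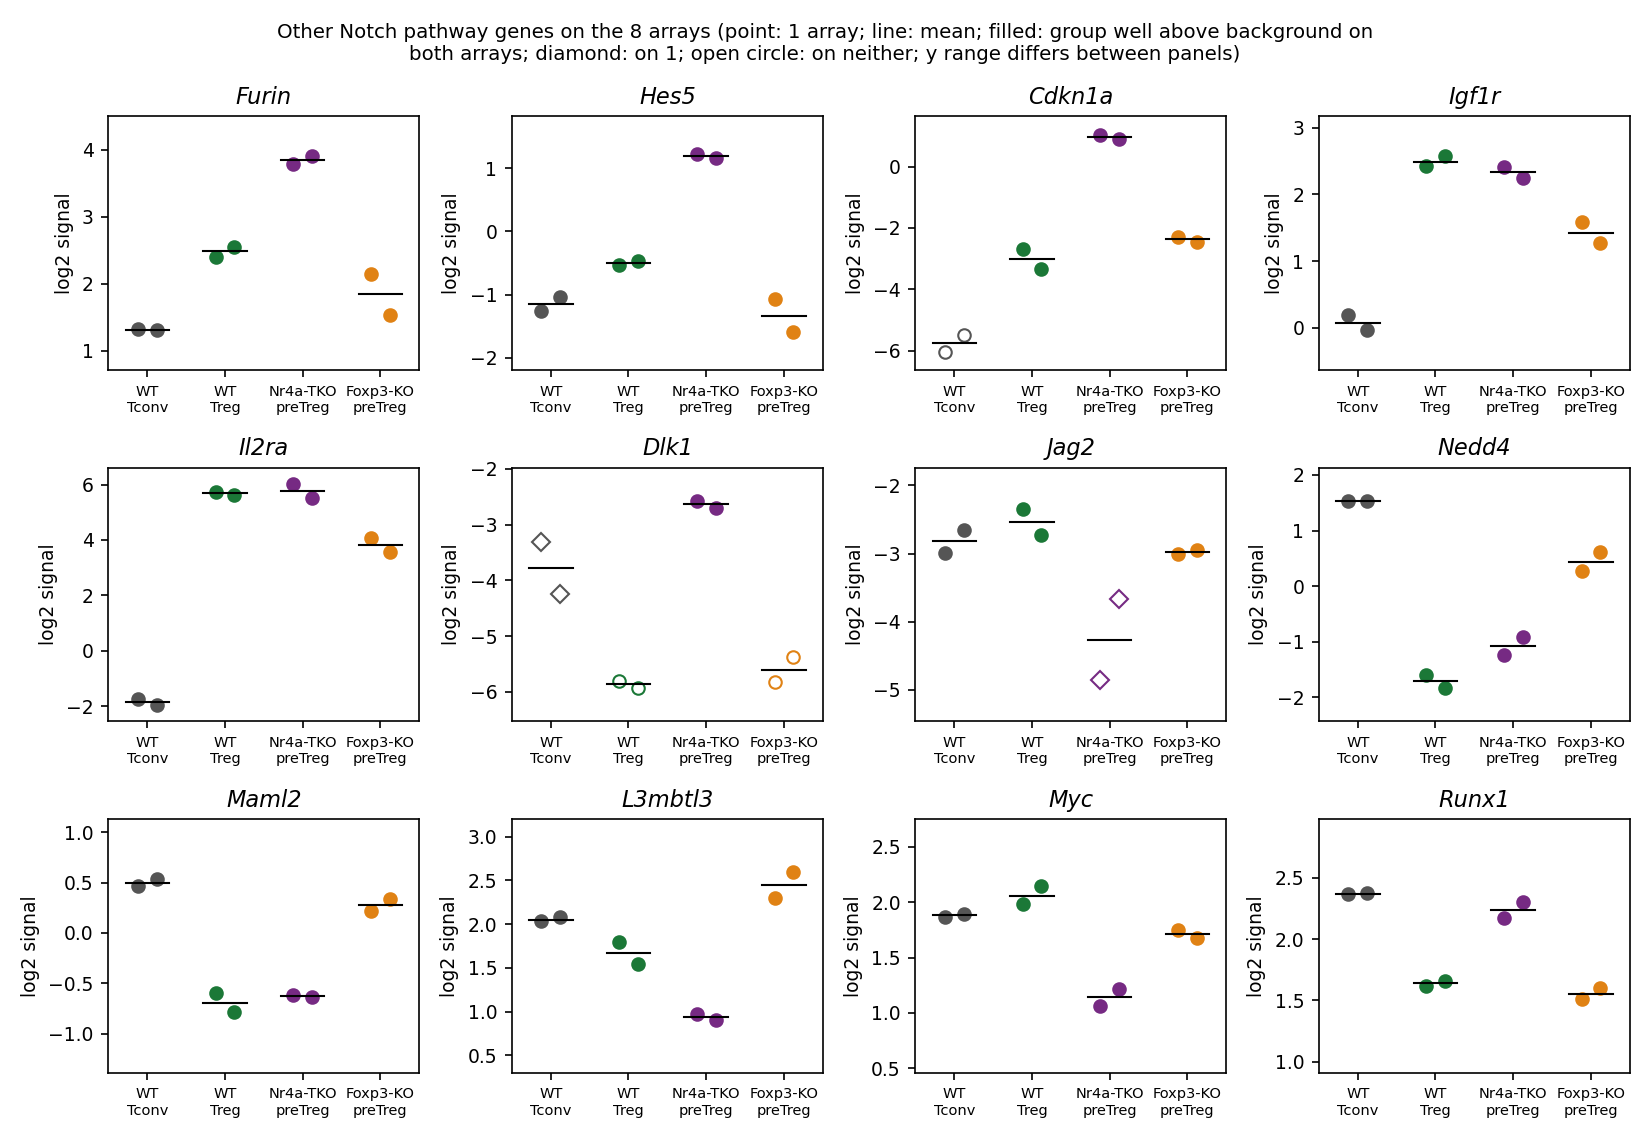
Log2 signal relative to the 75th percentile of the array (vertical axis, range differs between panels) of 12 other genes of the pathway in the 4 groups, 1 point per array and a line at the mean of 2 arrays. Furin, Hes5 and Cdkn1a are highest on the 2 Nr4a-TKO preTreg arrays, where Hes5 lies at 1.22 and 1.16 and on no other array above -0.47.

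Among the Hes and Hey genes, some of which encode repressors that Notch induces, Hes5 was higher in Nr4a-TKO preTreg than in any other group. It lay at 1.22 and 1.16 there, at -0.53 and -0.47 in WT Treg, at -1.26 and -1.03 in WT Tconv, and at -1.07 and -1.59 in Foxp3-KO. Hes5 was thus 5.04-fold higher in Nr4a-TKO than in WT Tconv (2.33 ± 0.18, adjusted p = 0.000842), 3.23-fold higher than in WT Treg (1.69 ± 0.18, adjusted p = 0.00263) and 5.73-fold higher than in Foxp3-KO (2.52 ± 0.18, adjusted p = 0.00128). All 3 calls held under each of 19 alternatives. The smaller difference of WT Treg from WT Tconv (0.64, adjusted p = 0.0421) was lost without any 1 of the 6 arrays that are not Foxp3-KO, with no brightness filter and with median scaling (adjusted p = 0.0643). Hes6 moved slightly the other way and was lower in Nr4a-TKO than in WT Tconv, WT Treg and Foxp3-KO, by at most 0.31 log2 units. Hes7 was lower in each of the 3 other groups than in WT Tconv, by 0.44 to 0.50. These small calls of Hes6 and Hes7 were lost under 4 to 13 of 19 alternatives, among them leaving out any 1 of 4 to 8 of the 8 arrays. Hey1 passed in no comparison, and Hey2 and Heyl were at background on all arrays.

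Of the 7 ligand genes, Dll1, Dll3 and Dll4 were not bright enough to test. Dlk1, a ligand that lacks the receptor-activating domain, was measured on both arrays only in Nr4a-TKO, at -2.58 and -2.70, and on 1 array of WT Tconv. Against its background level in WT Treg, Dlk1 was at least 3.24-fold higher in Nr4a-TKO (adjusted p = 0.00212), and against that in Foxp3-KO at least 2.67-fold (adjusted p = 0.00337). These bounds hold for the main background correction: with normexp both calls stayed, but the fitted differences were 1.70-fold and 1.61-fold. Against WT Tconv it was 1.14 log2 units higher (adjusted p = 0.0316), a call lost under 11 of 18 alternatives, among them leaving out WT Tconv replicate 2 or any 1 Nr4a-TKO or WT Treg array. Dlk1 was also called higher in WT Tconv, where 1 array was measured, than in WT Treg and Foxp3-KO. The fitted differences were 4.22-fold and 3.51-fold (adjusted p of 0.00722 and 0.0165), and the bounds against background 1.47-fold and 1.21-fold. With normexp the fitted differences were 1.25-fold and 1.18-fold, below these bounds, and the second was not called (adjusted p = 0.104). That second call was lost under 6 alternatives in all, among them leaving out WT Tconv replicate 1 or Foxp3-KO replicate 1. Jag2, a classical ligand, lay at -4.86 and -3.66 in Nr4a-TKO, measured on 1 of 2 arrays, and between -3.00 and -2.34 elsewhere. It was lower there than in WT Tconv (-1.44 ± 0.39, adjusted p = 0.0299) and WT Treg (-1.73 ± 0.39, adjusted p = 0.0233), and the difference from Foxp3-KO did not pass (-1.28, adjusted p = 0.055). The call against WT Tconv was lost without either WT Tconv array or Nr4a-TKO replicate 1, and that against WT Treg without either WT Treg array. Both calls were also lost with the 2 groups compared fitted alone, and that against WT Tconv with no brightness filter. Jag1 and Dlk2 passed in no comparison, nor did the fourth receptor, Notch4, which was measured on both arrays only in Nr4a-TKO.

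Among genes of receptor processing, 6 of 8 tested were called between Nr4a-TKO and WT Tconv, with 5 higher and 1 lower in Nr4a-TKO, where 48.7% of all genes were called (21.1% higher, 27.6% lower). Furin, the protease that makes the first cut in the Notch precursor, lay at 3.79 and 3.90 in Nr4a-TKO, 2.40 and 2.55 in WT Treg, 2.15 and 1.53 in Foxp3-KO, and 1.32 and 1.31 in WT Tconv. The groups did not overlap. Furin was higher in Nr4a-TKO than in WT Tconv by 5.78-fold (2.53 ± 0.20, adjusted p = 0.000898), than in WT Treg by 2.58-fold (adjusted p = 0.00685), and than in Foxp3-KO by 4.0-fold (adjusted p = 0.00289), and the 3 calls held under each of 19 alternatives. It was also 2.24-fold higher in WT Treg than in WT Tconv (adjusted p = 0.0102), a call lost without either WT Tconv array or WT Treg replicate 2. In the same comparison of Nr4a-TKO with WT Tconv, 4 of 5 genes of receptor glycosylation were called, all lower, beside the same 27.6% of all genes.

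Among co-factors, 7 of 15 co-repressors tested were lower and 1 higher in Nr4a-TKO than in WT Tconv, a share of 53.3% that is near the 48.7% of all genes. L3mbtl3, which encodes a co-repressor partner of RBPJ, lay at 0.97 and 0.90 in Nr4a-TKO and at 1.54 or above elsewhere. It was lower there than in WT Tconv (-1.12 ± 0.14, adjusted p = 0.0027) and Foxp3-KO (-1.51 ± 0.14, adjusted p = 0.00219) under each of 19 alternatives, and lower than in WT Treg (-0.74, adjusted p = 0.0131), a call lost without either Nr4a-TKO array or WT Treg replicate 1. Maml2, a Mastermind co-activator, split the groups differently. It was -0.60 and -0.79 in WT Treg and -0.62 and -0.64 in Nr4a-TKO, against 0.47 and 0.53 in WT Tconv and 0.22 and 0.34 in Foxp3-KO. Maml2 was thus lower than in WT Tconv by 2.30-fold in WT Treg (adjusted p = 0.000952) and by 2.19-fold in Nr4a-TKO (adjusted p = 0.000964). It was higher in Foxp3-KO than in WT Treg (0.98 ± 0.09, adjusted p = 0.00897), a call lost without WT Treg replicate 2 and with these 2 groups fitted alone. Nedd4, a ubiquitin ligase that can send Notch to degradation, also lay lowest in WT Treg and Nr4a-TKO, at 1.53 on both WT Tconv arrays, 0.27 and 0.61 in Foxp3-KO, -1.23 and -0.92 in Nr4a-TKO and -1.59 and -1.83 in WT Treg. Against WT Tconv it was lower by 9.43-fold in WT Treg (-3.24 ± 0.16, adjusted p = 0.000308), 6.08-fold in Nr4a-TKO (adjusted p = 0.000494) and 2.12-fold in Foxp3-KO (adjusted p = 0.0114). The last of these was lost without either WT Tconv array.

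Of 17 further genes known as Notch targets in T lineage cells, 15 were tested. Between Nr4a-TKO and WT Tconv 11 were called, 5 higher and 6 lower, beside 48.7% of all genes, so the list had no common direction. Cdkn1a, which encodes the cell cycle inhibitor p21, was at background in WT Tconv, at -2.68 and -3.35 in WT Treg, at -2.28 and -2.45 in Foxp3-KO, and at 1.04 and 0.91 in Nr4a-TKO. Against the background level of WT Tconv it was at least 63.4-fold higher in Nr4a-TKO (adjusted p = 0.000181), at least 4.0-fold in WT Treg (adjusted p = 0.00184) and at least 6.27-fold in Foxp3-KO (adjusted p = 0.00188). These bounds too hold for the main setting: with normexp the 3 calls stayed, but the fitted differences of Cdkn1a were 11.3-fold, 1.65-fold and 1.99-fold. Averaging the probes gave 19.6-fold, 2.52-fold and 3.24-fold and ended the call in WT Treg (adjusted p = 0.0694). Igf1r, the receptor of insulin-like growth factor, was higher than in WT Tconv in all 3 other groups, by 5.32-fold in WT Treg, 4.76-fold in Nr4a-TKO and 2.53-fold in Foxp3-KO (adjusted p of 0.000465, 0.000509 and 0.0048). Il2ra was higher in the same 3 groups by 50.4-fold to 196-fold, but it encodes CD25, on which the sorts were gated. Myc was lower in Nr4a-TKO, at 1.06 and 1.22, than in WT Treg, at 1.98 and 2.15 (-0.92 ± 0.09, adjusted p = 0.00226). Runx1, a transcription factor of T cell development, was lower in WT Treg (-0.74, adjusted p = 0.0023) and in Foxp3-KO (-0.82, adjusted p = 0.00328) than in WT Tconv, and 1.51-fold higher in Nr4a-TKO than in WT Treg (fit of all 4 groups, adjusted p = 0.00452).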

How the data were processed

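RNA of 8 samples was hybridised with Cy3 to Agilent arrays, per the labels' protocols. Per the file headers, the deposited values are processed signal intensity per spot from Agilent Feature Extraction 10.7.1.1, background-subtracted, and not scaled between arrays. A series matrix, deposited by the authors too, holds linear intensity that was a constant multiple of that signal on each array and served as an alternative. The array number, 2 a group, limits the precision.

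Of 62976 spots, 3671 controls were left out, as were 81 to 164 flagged spots per array, and 0 were saturated. Signals were put on the log2 scale relative to the 75th percentile of the array, spots of a probe were averaged, and the brightest probe stood for a gene. Genes were named through RefSeq accessions, which gave a symbol to 28026 probes and none to 27655. A gene was tested if well above background on both arrays of at least 1 group. Where all probes were at background in a group, a fold is a lower bound against the higher of the probe's own signal and the lowest signal of detected probes. The 4 groups were fitted together with limma 3.58.1 (R 4.3.3, lmFit and eBayes, 4 residual and 1.6 prior degrees of freedom) in 6 pairwise comparisons. A difference was called at a Benjamini-Hochberg adjusted p under 0.05 over the 13498 genes. The SE pools the spread over the 4 groups. The code was tested on simulated data.

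The members, lists and tests were chosen with earlier results of these data known. Named besides the members are the up to 4 other pathway genes per comparison with the smallest adjusted p, the ligands, Notch4 and the Hes and Hey genes, and for members that span 1 log2 unit the 3 genes with the highest r. Alternatives were quantile normalization, median scaling, the deposited matrix, normexp with an offset of 50, dropping the brightness filter, asking for detection on all 8 arrays, averaging the probes of each gene, an intensity trend, the 2 groups compared alone, the replicate number as a block and leaving out each array. The other probe of a gene and leaving out replicate 1 of both precursor groups were added after the data were seen. Figures were drawn with matplotlib 3.10.9.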

Additional observations from a re-analysis of the deposited data

How the results depend on the processing

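Of the differences of members under the alternatives, 504 kept direction and side of the threshold, 32 lost and 39 gained a call, and 13 changed sign, none of which was called in the main setting. Those 13 were Dtx1 in Nr4a-TKO against Foxp3-KO (0.22 without Nr4a-TKO replicate 2) and against WT Treg (-0.07 without Nr4a-TKO replicate 1, alone or with Foxp3-KO replicate 1), Notch1 in Nr4a-TKO against WT Treg (-0.13 on the other probe), Notch2 in Foxp3-KO against WT Tconv (-0.06 on the other probe), Rbpj in Foxp3-KO against WT Treg (0.09 without Foxp3-KO replicate 2) and Notch3: in Foxp3-KO against WT Tconv -0.03 with quantile normalization, -0.11 with median scaling and -0.27 without Foxp3-KO replicate 2, in Foxp3-KO against WT Treg -0.16 without that array and -0.26 without WT Treg replicate 2, and in WT Treg against WT Tconv 0.10 with normexp and 0.32 without WT Treg replicate 2. Leaving out 1 array, these ran from -0.77 to 0.22 and -0.07 to 0.92 for Dtx1, -0.99 to 0.09 for Rbpj, and -0.27 to 0.38, -0.26 to 0.59 and -0.53 to 0.32 for Notch3, in the order given. The causes were not tested.

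Members called in Foxp3-KO against WT Tconv went from 0 to 1 with median scaling, normexp, an intensity trend or the 2 groups alone, and to 2 without replicate 1 of both precursor groups. Against WT Treg they went from 0 to 1 with normexp, detection required on all 8 arrays, averaged probes or a trend, and to 3 without replicate 1 of both. In Nr4a-TKO against Foxp3-KO they went from 3 to 0 with the 2 groups alone, where 3 had an unadjusted p under 0.05, and against WT Treg from 2 to 1 with the 2 groups alone or without replicate 1 of both. Leaving out 1 array gave 1 to 3 called members in WT Treg against WT Tconv, 2 to 5 in Nr4a-TKO against WT Tconv, 0 to 2 in Foxp3-KO against WT Tconv, 0 to 2 in Nr4a-TKO against WT Treg, 0 to 3 in Foxp3-KO against WT Treg and 2 to 4 in Nr4a-TKO against Foxp3-KO; a lone array is then assumed to vary like the other groups.

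Other pathway genes called in Foxp3-KO against WT Tconv (17) were 29 with median scaling, 11 with no filter and 7 with the 2 groups alone, and against WT Treg (8) 5 with median scaling or the replicate block, 4 with no filter and 0 with the 2 groups alone (14 at an unadjusted p under 0.05). In Nr4a-TKO against Foxp3-KO (36) they were 11 with the 2 groups alone. Leaving out 1 array gave, in the order above, 10 to 37, 25 to 52, 4 to 23, 18 to 39, 0 to 10 and 20 to 40. Deviations of same-numbered samples correlated at -0.03 to -0.01 in the 3 pairs with WT Tconv and at 0.15 to 0.26 among the other 3 groups. Since not every pair was clearly above 0, the numbers were not taken to pair the samples. The replicate block changed no other count of members or pathway genes by over 1.5 times. Of the calls named in the report, it ended those of Hes5 and Hes7 in WT Treg against WT Tconv, Ptcra in Nr4a-TKO against WT Tconv and Hes6 in Nr4a-TKO against Foxp3-KO.

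Over the 13498 genes of the main setting, Foxp3-KO against WT Tconv gave 3386 calls, 5459 with median scaling, 1922 with no filter and 1282 with the 2 groups alone; against WT Treg it gave 870, then 367 with no filter, 0 with the 2 groups alone (2268 unadjusted) and 1515 without replicate 1 of both precursor groups; Nr4a-TKO against Foxp3-KO gave 4512 and 887 with the 2 groups alone. Leaving out 1 array gave, in the same order as before, 1651 to 5721, 3113 to 7273, 457 to 4311, 2068 to 5827, 60 to 1347 and 1991 to 5367. Median scaling moved the median of all genes to -0.24, -0.22 and -0.27 in the 3 comparisons with WT Tconv and the share of higher calls there from 39.8%, 43.3% and 41% to 25%, 34.2% and 20.8%. In Nr4a-TKO against Foxp3-KO it moved that share from 53.2% to 63.8%. Dropping the brightness filter, with calls counted over all genes then fitted, moved it the other way, to 31.3%, and moved Nr4a-TKO against WT Treg from 53% to 33.8% and Foxp3-KO against WT Tconv from 41% to 53.6%. Without WT Tconv replicate 1 or 2, the last was 70.7% or 72%. Hes1 and Nrarp were limited by their signal over background.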
